A study of Homo sapiens with 22 samples.

Results

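HOXD13 binding sites of A673 were set against those of CHLA10. Both are established cell lines of Ewing sarcoma, and the sites are peaks of CUT&RUN libraries. The members were all deposited HOXD13 peaks on chromosomes 1 to 22 and X, 7160 in A673 and 2099 in CHLA10, together 9259 of the 580789 peaks in the 18 peak lists of the series. A peak counted as shared when it overlapped a HOXD13 peak of the other line by at least 1 bp, and as line-only otherwise. Peaks were also compared by the distance to the nearest peak of the other line, by clustering along the genome and by the genes they lay in or within 100 kb of.

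The series holds 22 libraries, of which 2 were made with a rabbit antibody against HOXD13 diluted 1:20, 1 per line, from 250000 to 500000 cells. Another 16 were made against H3K4me3, H3K27ac, H3K4me1 and H3K27me3, 2 per mark and line, and their labels add shNS, a term absent from the HOXD13 labels, so the mark and HOXD13 libraries may not come from identically treated cells. The series title links HOXD13 and EWS-FLI1 to cell plasticity, and the labels give no treatment and no genetic change for either HOXD13 group. A673 was grown in RPMI medium, and CHLA10 in IMDM with more serum and added insulin, transferrin and selenium, so line and medium cannot be told apart. The 4 IgG libraries had no peak list in the files used here. H3K4me3 lay at the ends of all 8 Ewing sarcoma marker genes examined, among them NKX2-2, CD99 and NR0B1, in both libraries of both lines. H3K27ac lay there at 0 of 8 in both A673 libraries and at 3 of 8 in both CHLA10 libraries. Epithelial marker genes carried H3K4me3 in both libraries at 0 of 6 in A673 and 1 of 6 in CHLA10 (EPCAM), haematopoietic ones at 1 of 5 in each line and endothelial ones at 2 of 5 in each line.

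HOXD13 is the homeodomain transcription factor at the 5′ end of the HOXD cluster, known for patterning digits and the posterior body and normally silent in most adult tissues. In Ewing sarcoma, a tumour of bone and soft tissue driven by the EWS-FLI1 fusion, it is known to be highly expressed. Posterior HOX proteins bind T-rich sites that start with TTTA, alone or beside cofactors of the MEIS and PBX families. CUT&RUN cuts chromatin around a bound antibody, and a peak is a place where released fragments pile up over the caller's background. Each line has 1 HOXD13 library, so no difference between the lines could be tested, the intervals below cover counting error only, and peaks of a list share its library.

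Sequences under HOXD13 summits are given for promoters with high peaks, in windows with a peak of both lines or of 1 line only. A promoter window here is the 300 bp from 250 bp before to 50 bp after a RefSeq transcription start (GRCh38.p14), and each sequence runs 5′ to 3′ along the gene's strand, up to 50 bp on each side of the summit within the bases before the start. Capitals mark TTTATTGG or its reverse complement, and a run without capitals holds neither. The 5 windows with a peak of both lines come first, because they hold the highest A673 −log10 q among the 18 such windows. The −log10 q and the fold enrichment of a peak are the authors' values and rank peaks within 1 list only. They are RNF181 (an E3 ubiquitin ligase gene, chr2:85595613-85595713, plus strand), HLA-DMB (class II antigen loading, chr6:32941043-32941143, minus), GPR108 (chr19:6737763-6737830, minus), TPP1 (a lysosomal peptidase gene, chr11:6619437-6619537, minus) and COPZ1 (a vesicle coat subunit gene, chr12:54325019-54325119, plus).
RNF181: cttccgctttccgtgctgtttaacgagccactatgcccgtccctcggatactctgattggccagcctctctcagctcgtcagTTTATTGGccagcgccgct
HLA-DMB: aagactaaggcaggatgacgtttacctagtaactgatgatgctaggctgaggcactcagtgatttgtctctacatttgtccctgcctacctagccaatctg
GPR108: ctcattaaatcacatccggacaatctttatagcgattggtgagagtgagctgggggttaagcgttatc
TPP1: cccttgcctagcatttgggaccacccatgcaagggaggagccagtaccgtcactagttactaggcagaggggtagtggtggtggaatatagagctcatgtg
COPZ1: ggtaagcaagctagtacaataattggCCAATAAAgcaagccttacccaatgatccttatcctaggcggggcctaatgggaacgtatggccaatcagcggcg

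Windows with a strong peak in A673 only follow, to set beside them: PSMB8 (an immunoproteasome subunit gene, chr6:32844680-32844760, minus), and the histone genes H2AC8 (chr6:26216673-26216773, plus) and H2BC9 (chr6:26251443-26251543, plus).
PSMB8: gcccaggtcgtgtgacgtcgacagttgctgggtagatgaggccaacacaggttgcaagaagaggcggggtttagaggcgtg
H2AC8: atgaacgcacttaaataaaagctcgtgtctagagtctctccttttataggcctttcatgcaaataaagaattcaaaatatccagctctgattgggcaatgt
H2BC9: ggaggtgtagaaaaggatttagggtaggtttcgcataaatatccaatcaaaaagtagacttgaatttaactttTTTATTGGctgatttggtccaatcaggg

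Windows with a strong peak in CHLA10 only are NUSAP1 (a spindle protein gene, chr15:41332778-41332878, plus), MED19 (a Mediator subunit gene, chr11:57712413-57712465, minus) and the uncharacterised LOC100652758 (chr5:151771648-151771748, minus).
NUSAP1: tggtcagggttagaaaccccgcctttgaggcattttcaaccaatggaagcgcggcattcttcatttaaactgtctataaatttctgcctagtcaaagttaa
MED19: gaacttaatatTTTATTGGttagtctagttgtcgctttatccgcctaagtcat
LOC100652758: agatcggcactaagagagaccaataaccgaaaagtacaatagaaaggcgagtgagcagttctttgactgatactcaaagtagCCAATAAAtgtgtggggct

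At RNF181 the A673 peak had a −log10 q of 997 and a fold enrichment of 58.3, and the CHLA10 peak 655 and 53.5. The summits lay 6 bp apart, and the A673 summit was 82 bp before the start and 35.5 bp from the middle of the capitalised motif. HLA-DMB followed with 269 in A673 and 329 in CHLA10, and summits 20 bp apart. TPP1 had 108 and 154 with summits 1 bp apart. COPZ1 had 66.7 and 139, and there the summits were 97 bp apart. GPR108 had 132 in A673 and 28.4 in CHLA10 with summits 2 bp apart. Apart from HLA-DMB, all of these promoters carried H3K4me3 in both libraries of both lines and H3K27ac in none. Under the A673 peak at HLA-DMB, H3K4me3 and H3K27ac were called in 1 A673 library each and in neither CHLA10 library, and H3K27me3 in 1 CHLA10 library. At the windows called in 1 line, −log10 q was 103 at PSMB8, 81.8 at H2AC8 and 56.7 at H2BC9 in A673. In CHLA10 it was 147 at NUSAP1, 128 at MED19 and 93.2 at LOC100652758. NUSAP1, MED19 and LOC100652758 carried H3K4me3 in both A673 libraries too, so the mark was present in the line without the HOXD13 peak, as at PSMB8 and H2BC9 in CHLA10. H2AC8 carried it in both A673 libraries and in neither CHLA10 library.

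TTTATTGG, read on both strands, was more frequent at promoter windows with a HOXD13 peak than among all windows, and its share was larger in the CHLA10 list. It occurred in 328 of 34961 windows (0.938%, exact Clopper-Pearson 95% interval 0.840 to 1.04), in 22 of the 300 windows with an A673 peak (7.33%, 4.65 to 10.9) and in 14 of the 47 with a CHLA10 peak (29.8%, 17.3 to 44.9). Of the 18 windows with peaks of both lines 5 held it, against 17 of 282 with an A673 peak only and 9 of 29 with a CHLA10 peak only. With A673 cut to the 2099 peaks of highest −log10 q, the length of the CHLA10 list, the A673 share was 20.4%. Within each list the share was higher in the windows with the higher −log10 q, 18 of 150 against 4 of 150 in A673 and 10 of 24 against 4 of 23 in CHLA10, split at the median. The motif lay a median of 26 bp from the A673 summit, within 50 bp in 16 of 22 windows, and 39 bp from the CHLA10 summit, within 50 bp in 10 of 14. Windows of divergent or alternative starts share bases and peaks: the 300 and 47 windows belong to 241 and 40 peaks. This holds for windows with the motif too: that of MED19 shares its CHLA10 peak with motif windows of neighbouring starts. The intervals and the split at the median count every window separately.

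The other posterior HOX sequence searched, TTTACGAG, was in 48 of all windows (0.137%), in 7 of 300 with an A673 peak (2.33%) and in 0 of 47 with a CHLA10 peak (exact upper limit 7.55%). CCAAT, whose reverse complement ATTGG lies inside TTTATTGG, was in 34.6% of all windows, 59.3% of A673 windows and 87.2% of CHLA10 windows. Where TTTATTGG was absent, CCAAT was still in 33.9%, 56.1% and 81.8%. The other sequences searched differed less between the lists, and the set of sequences was chosen after peaks had been seen. GGAAGGAA, a repeat of the ETS core, was in 3.67% of all windows, 4.00% of A673 windows and 4.26% of CHLA10 windows. The AP-1 site TGACTCA was in 4.92%, 8.67% and 8.51%, and the E-box CACGTG in 7.27%, 6.0% and 6.38%. These matches describe letters in a window. Promoters held only 3.37% of A673 and 1.91% of CHLA10 peaks, and sequences under the other peaks were not analysed here.

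Over the whole lists, 517 A673 peaks (7.22%, 6.63 to 7.84) overlapped 504 CHLA10 peaks (24.0%, 22.2 to 25.9), in 524 pairs. The summits of a pair lay a median of 43 bp apart, within 50 bp in 55.7% of pairs and within 200 bp in 91.2%, with a largest offset of 645 bp; overlap itself keeps summits close. A673 peaks were shorter (median 192 bp against 349 bp), and 43.9% of pairs had the A673 peak wholly inside the CHLA10 peak, against 11.5% the other way. Peak strength was only loosely matched: the Spearman correlation of −log10 q over the 524 pairs was 0.26, a description over sites of the same 2 libraries.

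Sharing was most frequent among the strongest A673 peaks and least frequent among the weakest CHLA10 peaks. Among the 716 A673 peaks with the highest −log10 q 14.8% were shared (12.3 to 17.6), and in the following groups of 716 between 4.89% and 8.52%. In CHLA10 the 209 lowest peaks shared 13.9% (9.49 to 19.3), and the groups of 210 above them between 21.9% and 30.0% with overlapping intervals. Shared and line-only peaks of a list differed little in their middle values, with a median −log10 q of 17.9 against 14.2 in A673 and 28.4 against 25.8 in CHLA10.

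**Figure D1:**
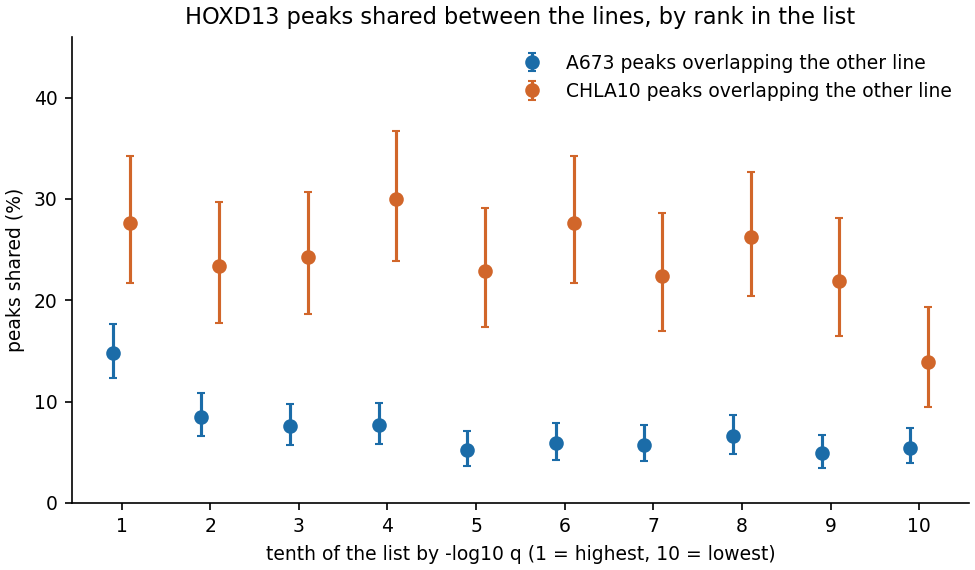
Percent of HOXD13 peaks that overlap a peak of the other line (vertical axis), in 10 groups of equal size from the highest to the lowest −log10 q (horizontal axis). Points are shares of the 1 library per line and bars are exact 95% intervals. A673 stands at 14.8% in its highest group and at 4.89 to 8.52% below it, and CHLA10 at 13.9 to 30.0%.

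The shared peaks with the highest −log10 q in A673 are given with the value of their CHLA10 partner, chosen for the first value and not to be compared in size across lists. VMP1, an autophagy gene, held a peak of 204 in A673 and 34.96 in CHLA10. AUTS2, known for its part in brain development, had 196 and 72.3. The peak 61.2 kb from DRD1, a dopamine receptor gene, had 184 and 116. The peak 0.704 kb from FJX1, a secreted growth regulator gene, had 184 and 41.9. MACF1, which links microtubules to actin, had 155 and 53.8 with summits 3 bp apart. ARHGAP10, a GTPase-activating protein gene, had 144 and 94.7, and TTLL9 had 141 and 53.4 with summits at the same base. One of the 10 had no gene within 100 kb (chr11:91871716-91872325, 147 and 107). H3K27ac was called in both CHLA10 libraries at VMP1, FJX1 and MACF1 and at that intergenic site. In A673 it was called in both libraries at VMP1 and MACF1, in 1 at FJX1 and in neither at the intergenic site.

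The shared peaks highest in CHLA10 took various ranks in A673. SMAP2, a vesicle traffic gene, had 139 in CHLA10 and 4.26 in A673, NBEAL1 156 and 12.3, and PNISR 231 and 16.4. The SMAP2 summits were 28 bp apart, those in NBEAL1 184 bp. EXOC4, an exocyst gene, had 224 and 104 with summits 3 bp apart, and SORL1, a sorting receptor gene, 155 and 32.9 with summits at the same base. A site without a gene within 100 kb (chr2:65991318-65991935) had 241 in CHLA10 and 75.7 in A673, and CHLA10 H3K27ac in both libraries.

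Some line-only peaks were stronger than many shared ones and lay far from any peak of the other line. The highest peak of each list was a shared one, with 997 against 144 line-only in A673 and 655 against 313 in CHLA10. In A673 the line-only peaks were led by ARHGAP26, of the same family as ARHGAP10, with 144 and the nearest CHLA10 peak 41.1 kb away. A site on chromosome 10 without a gene in 100 kb had 143 and lay 1155 kb from a CHLA10 peak, and one on chromosome 18 had 136 and lay 1523 kb away. CHN2, a Rac regulator gene, had 131 (510 kb), ANKRD6, a WNT signalling gene, 125 (1568 kb), RAPGEF5 114 (1574 kb), and the site 6.80 kb from MOG, a myelin gene, 115 (3291 kb). A second FJX1 peak, 15.8 kb from the gene, had 127 and was 18.8 kb from a CHLA10 peak. The others of the 10 lay 91.2 kb from CHD1, a chromatin remodeller gene (122), and 16.5 kb from KCNJ15, a potassium channel gene (110). Of these 10, 6 lay over 1 Mb from every CHLA10 peak, as did 1809 of all 7160 A673 peaks (25.3%). The 10 were picked by rank, and a link of strength with distance was not tested.

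In CHLA10 the line-only peaks were led by CRB1, a cell polarity gene, with 313 and the nearest A673 peak 135 kb away. ALDH1A1 and TMC1, neighbours on chromosome 9, had peaks of 157 and 145 at 43.1 and 25.9 kb, and ALDH1A1 makes retinoic acid. OTOGL had 183, PPTC7 161, CDK19 (a Mediator kinase gene) 151, SERPINB1 147 and the NUSAP1 promoter 147, and a site on chromosome 6 without a gene in 100 kb 195. PPTC7, at 20.1 kb, and OTOGL, at 35.2 kb, lay nearest to an A673 peak. The ALDH1A1 site carried none of the 4 marks in any of the 16 libraries, while at CRB1 the CHLA10 libraries both called H3K27ac and those of A673 did not.

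Between full overlap and separate regions few peaks fell. Of CHLA10 peaks 504 overlapped an A673 peak, 78 lay within 1 kb of one without overlap (3.72%), 122 at 1 to 10 kb, 558 at 10 to 100 kb, 719 at 100 kb to 1 Mb and 118 (5.62%) farther. A673 peaks were spread wider around CHLA10 peaks: 517 overlapped, 81 lay within 1 kb, 192 at 1 to 10 kb, 1122 at 10 to 100 kb, 3439 at 100 kb to 1 Mb and 1809 (25.3%) farther. The median distance of peaks without overlap was 111 kb from CHLA10 to A673 and 421 kb from A673 to CHLA10. With 2099 peaks in each list the medians were 358 kb and 422 kb, and the shares that overlapped were 10.5% and 10.4%.

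The closest pairs without overlap were separated by 3 to 27 bp. At NFIB, a nuclear factor gene, the peaks lay 4 bp apart (19.9 in CHLA10, 6.51 in A673), at NCKAP1, an actin regulator gene, 5 bp apart (8.84 and 11.9). A CHLA10 peak 40.7 kb from SGK1, a kinase gene, lay 7 bp from an A673 peak (56.0 and 18.3). The other 5 of the 8 closest pairs had no gene within 100 kb. Over the 78 CHLA10 near misses the median gap was 200 bp and the median summit offset 388 bp.

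**Figure D2:**
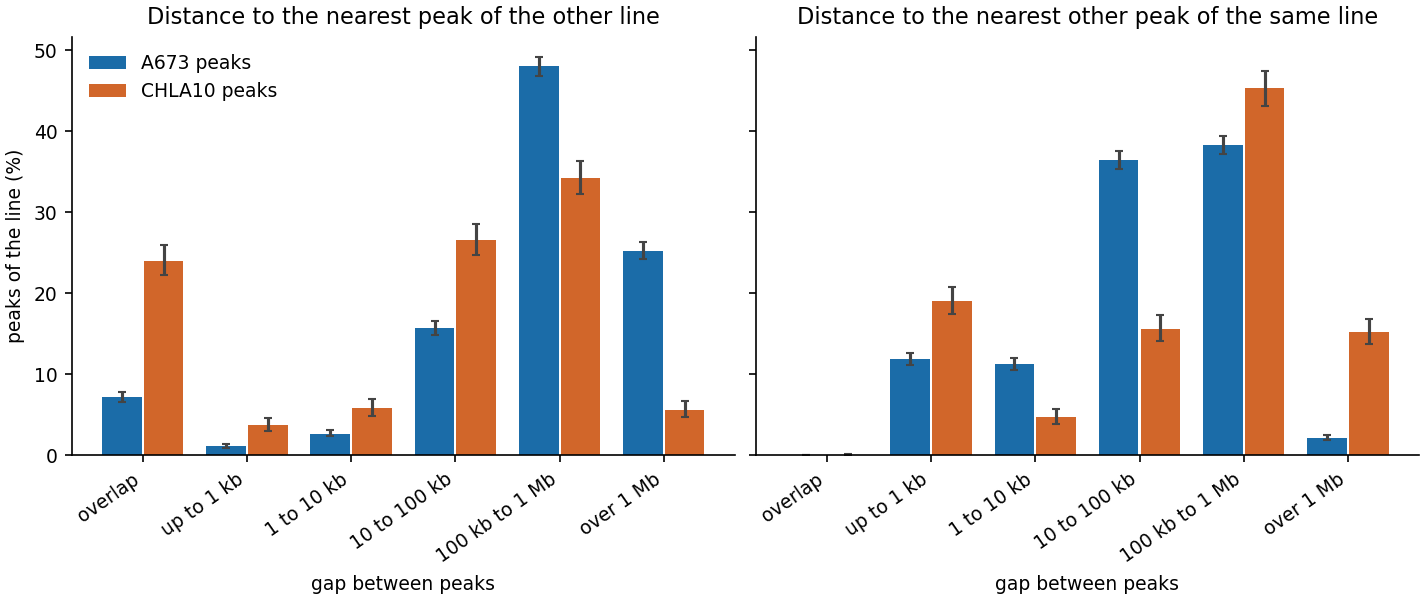
Percent of the peaks of each line (vertical axis) by the gap to the nearest peak of the other line (left) and to the nearest other peak of the same line (right). Bars are shares of 7160 A673 and 2099 CHLA10 peaks with exact 95% intervals. CHLA10 peaks have 19.1% of nearest own neighbours within 1 kb and 4.76% at 1 to 10 kb.

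Within its own list, CHLA10 was either tightly paired or widely spaced. A nearest own neighbour within 1 kb was found for 400 CHLA10 peaks (19.1%, 17.4 to 20.8), one at 1 to 10 kb for 100 (4.76%, 3.89 to 5.76). In A673 the corresponding shares were 11.8% (11.1 to 12.6) and 11.3% (10.6 to 12.1), and in its 2099 peaks of highest −log10 q 2.48% and 4.95%. So the difference at 1 to 10 kb was not seen with lists of equal length, while that within 1 kb was larger. The tight neighbours formed 191 runs in CHLA10 and 407 in A673, of which 174 and 377 were pairs. After joining peaks less than 1 kb apart there were 1890 CHLA10 and 6720 A673 regions.

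On a wider scale, peaks were chained where the gap was at most 50 kb, and chains of 3 or more peaks were called clusters. A673 had 417 clusters with 1534 peaks (21.4%, 20.5 to 22.4) and CHLA10 61 with 195 peaks (9.29%, 8.08 to 10.6). In the 2099 A673 peaks of highest −log10 q, a list both shorter and stronger, there were 14 clusters with 49 peaks (2.33%, 1.73 to 3.07), fewer than in CHLA10. Of the 195 clustered CHLA10 peaks 114 had a neighbour within 1 kb, and with such peaks joined the CHLA10 share was 3.28% and that of A673 16.04%. A CHLA10 peak lay in 126 A673 clusters (30.2%), and an A673 peak in 35 CHLA10 clusters (57.4%). A673 peaks inside clusters were shared in 9.91% (8.46 to 11.5) and those outside in 6.49% (5.86 to 7.16). CHLA10 showed no such gap, with 23.1% (17.4 to 29.6) inside and 24.1% (22.2 to 26.1) outside.

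The 6 A673 clusters with most peaks had 8 to 10 peaks each, and 5 of the 6 held no more than 1 shared peak. Over all A673 peaks 7.22% were shared, and over those in clusters 9.91%, so low counts do not set these 6 apart. The largest had 10 peaks over 142 kb at FJX1 and TRIM44 (chr11:35546384-35688260), of which 1 was shared. DUSP6, a phosphatase that limits ERK signalling, lay in a cluster of 9 peaks over 160 kb (chr12:89231201-89390873) that held no CHLA10 peak, and 8 of them carried A673 H3K4me1 and 6 CHLA10 H3K27ac, counted in whichever library of a mark covered more. The butyrophilin genes BTN3A2, BTN2A2, BTN3A1, BTN3A3 and BTN2A1, known for regulating T cells, held 8 peaks over 146 kb (chr6:26327912-26474344), again with no CHLA10 peak, although 8 carried CHLA10 H3K4me3. RPL37A, a ribosomal protein gene, had 8 peaks over 106 kb with 1 shared. Another pair of clusters of 8 held no gene, and the nearest were IFTAP at 315 kb and ATP2B1 at 238 kb.

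In CHLA10 the clusters with most peaks had 5, in VEPH1 (37.1 kb, 2 shared), in DLG2, a synaptic scaffold gene (25.4 kb, 0 shared), and 234 kb from ATP2B1 (6.21 kb, 2 shared). TNFAIP6, a gene of the hyaluronan matrix, had 4 over 45.5 kb with 0 shared, PPFIA2 4 over 85.4 kb with 2 shared. Beside ARID5B, a DNA-binding regulator gene of fat and cartilage, 4 peaks spanned 64.0 kb and all 4 were shared.

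In 18 places a cluster of one line overlapped a cluster of the other. The region 1.34 kb from ARID5B (chr10:61835652-61900361) held 7 A673 and 4 CHLA10 peaks in 64.7 kb, and all 4 CHLA10 peaks found a partner. The pairs there had −log10 q of 36.4 in A673 and 22.6 in CHLA10, then 18.5 and 27.1, 16.1 and 95.02, and 36.5 and 46.4, so the order of strength differed between the lines. Near ATP2B1, a calcium pump gene (chr12:89943624-90103228), A673 peaks were spread over 156 kb while 5 CHLA10 peaks sat within 6.21 kb at one edge, and a further CHLA10 peak lay 93.3 kb from that edge. Of the 8 A673 peaks 2 were shared, one with that further peak. At PLD1, a phospholipase gene, and TMEM212 the 6 A673 and 3 CHLA10 peaks gave 2 shared pairs, at one end. In the stretch 133 kb from PRNP, the prion protein gene, 5 A673 and 3 CHLA10 peaks did not overlap at all: the A673 peaks lay up to 60.4 kb from the left edge, and the CHLA10 peaks at 55.8, 101 and 101 kb. None of 4 A673 and 3 CHLA10 peaks in SOX6 overlapped either. Others of the 18 lay in PPFIA2, PALLD, XKR4, EXOC6B, CLCN3, MB21D2 and TRDN, and in stretches where the nearest gene was LMO4, KCNE4, RGS1, NYAP2, TNC or PTPRC.

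**Figure D3:**
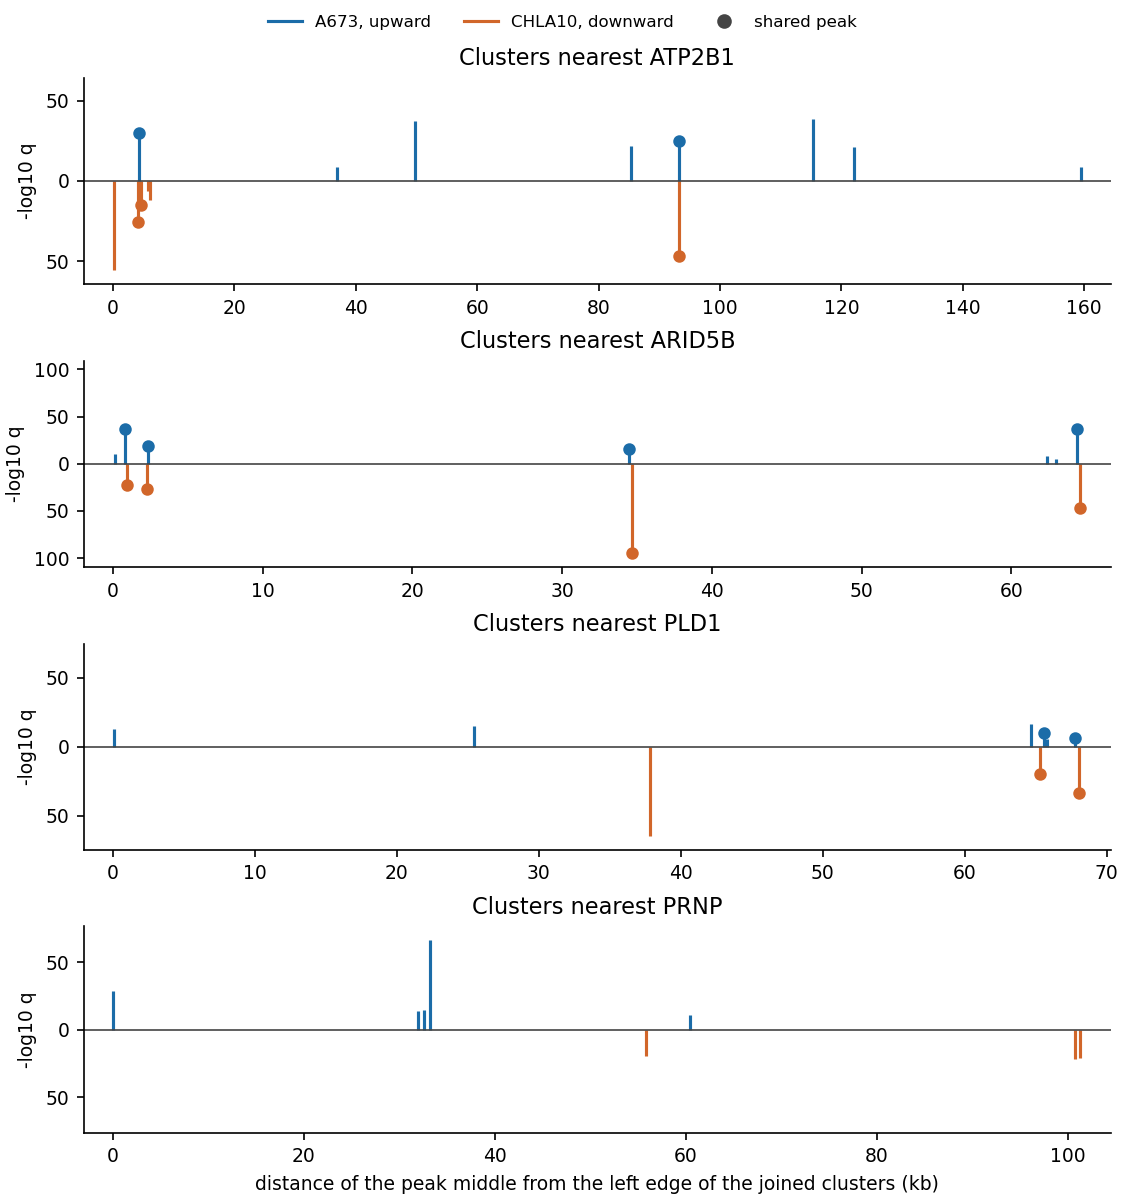
Each vertical line is 1 HOXD13 peak of the 4 overlapping clusters with most peaks, at the distance of its middle from the left edge (kb, horizontal axis) with its −log10 q as height, A673 upward and CHLA10 downward. Dots mark shared peaks: all 4 CHLA10 peaks near ARID5B, and none near PRNP.

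Windows of 1 Mb rich in A673 peaks were also rich in CHLA10 peaks, though unevenly. CHLA10 peaks averaged 0.347 in the 740 windows without an A673 peak, 0.848 in windows with 3 to 4, and 2.13 in the 173 windows with 8 or more. Of those 173, 35 held no CHLA10 peak. Over 2893 windows the Spearman correlation was 0.36, a description over stretches that share gene content and mappability. The A673 window with most peaks held the histone gene cluster and butyrophilin genes on chromosome 6 (26 to 27 Mb), with 21 A673 and 2 CHLA10 peaks. The window of DUSP6 and ATP2B1 held 18 and 8, and that of RGS1, RGS13 and RGS2, regulators of G protein signalling, 12 and 9. On chromosome 4 the window with HAND2, a limb and heart regulator gene, held 13 and 8. The window at 7 to 8 Mb of chromosome 21 went the other way, with 2 A673 and 8 CHLA10 peaks. Windows were picked by their counts after the values were seen.

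The peak names show gaps of different extent: A673 kept 9.94% of peak numbers that run to 72081, and CHLA10 1.00% of numbers that run to 209639. The ratio of the deposited A673 to CHLA10 peaks was 3.41 over all chromosomes and ran from 2.04 to 7.57 on all but chromosome 13. There A673 had 191 peaks and CHLA10 15, a ratio of 12.7, and 3 peaks were shared. Chromosome 16 followed with 159 and 21 (7.57), and the lowest ratios were on chromosome 4 (395 and 194, 2.04), 21 (2.22) and 1 (632 and 258, 2.45). For H3K27me3 the A673 to CHLA10 ratio of peaks on chromosome 13 was 4.00 (0.695 over all chromosomes), the highest of any chromosome. The other marks were not highest there. Their ratios on chromosome 13 were 7.24 for H3K4me1 (3.38 over all chromosomes), 1.76 for H3K27ac (1.37) and 0.942 for H3K4me3 (0.856). On chromosome 16 they were larger, 7.498 for H3K4me1, 2.39 for H3K27ac and 0.968 for H3K4me3. The part of these histone ratios in the HOXD13 counts was not tested.

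**Figure D4:**
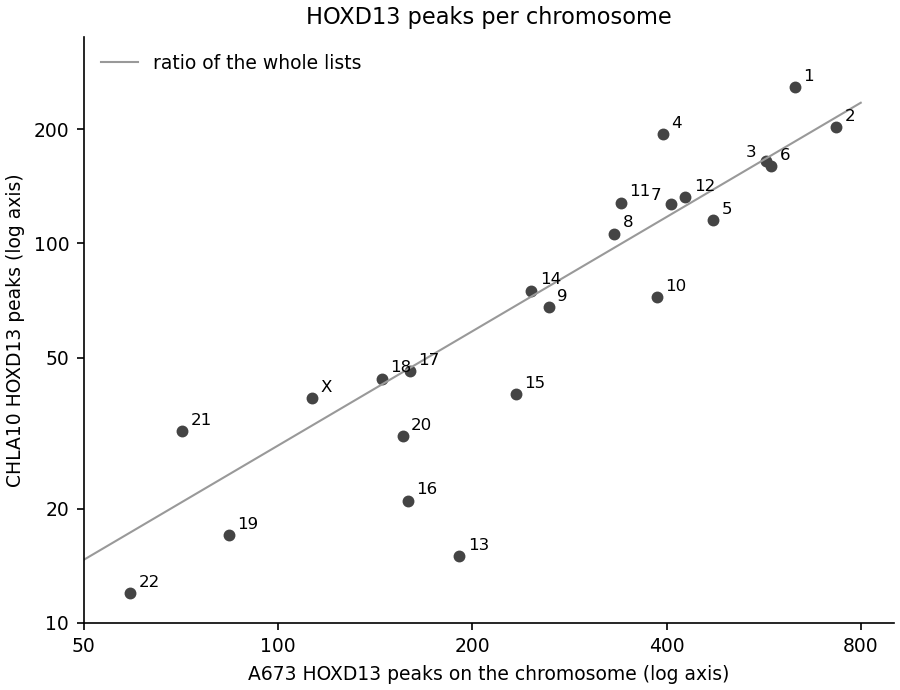
HOXD13 peaks per chromosome in A673 (horizontal, log axis) and CHLA10 (vertical, log axis), 1 library per line. The line is the ratio of the whole lists, 3.41; chromosome 13 lies farthest below it with 191 and 15 peaks.

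By gene, a peak was assigned to the protein-coding gene it lay in, otherwise to the nearest gene boundary within 100 kb. Of 19970 genes 3378 (16.9%) had a peak in A673, 1091 (5.46%) in CHLA10 and 686 (3.44%) in both, which is 20.3% of the A673 and 62.9% of the CHLA10 genes. The same gene often meant another site: at 335 of the 686 a pair overlapped, and at 351 (51.2%) none did. At 337 of these the peaks were over 1 kb apart, with a median closest distance of 42.3 kb. With lists of equal length 359 genes were common, 26.7% and 32.9% of each list. Inside genes lay 49.7% of A673 and 47.2% of CHLA10 peaks, and 21.3% and 28.3% had no gene within 100 kb.

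The genes with most A673 peaks were long genes. LRP1B, a lipoprotein receptor gene of 1900 kb, had 18 A673 and 2 CHLA10 peaks, none shared, and its highest CHLA10 peak (48.1) lay 106 kb from the nearest A673 peak. HMCN1, a basement membrane gene, had 14 and 5, again none shared, and was also among the 8 genes with most CHLA10 peaks. RBMS3 had 13 and 2, both CHLA10 peaks shared, one with 31.8 in A673 and 74.1 in CHLA10 lying 78.4 kb from the gene. SOX6 had 13 and 4 with 1 CHLA10 peak shared, and SOX5, of the same cartilage and neural family, 11 and 4 with all 4 shared. RERE had 12 and 2, XKR4 11 and 3 and the polarity gene PARD3 11 and 2.

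Genes with most CHLA10 peaks included some that A673 hardly used. DLG2 had 10 CHLA10 peaks, 9 inside the gene, and 2 A673 peaks, both shared and both outside it. PDE4D, a phosphodiesterase gene of cAMP signalling, had 7 CHLA10 peaks and 1 A673 peak, 246 kb from the nearest. LAMA2, a muscle laminin gene, had 5 and 4, none shared, with a highest −log10 q of 99.7 in CHLA10 and 15.1 in A673. RAD51B had 6 and 5 with 2 shared, ARID5B 6 and 11 with 4 shared, VEPH1 5 and 3 with 2 shared, and SGIP1 5 and 3 with 1 shared.

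Strong peaks at different places of one gene were found at DLC1, a tumour suppressor gene, with 62.6 in A673 and 99.4 in CHLA10 and the closest pair 37.6 kb apart. In DYNC1I2, a dynein gene, the single peaks (60.6 and 71.5) lay 5.45 kb apart, and in ATF3, a stress response factor gene, the highest (48.0 and 50.6) 6.14 kb. In the following genes the highest peaks are given with the distance of the closest pair, which need not be the highest peaks. The closest pair lay 58.3 kb apart at CSNK1G1 (58.6 and 65.8), 82.0 kb at RGS13 (60.05 and 46.9), 26.6 kb at TSC22D2 (43.7 and 68.2) and 14.2 kb at HMCN1 (44.3 and 51.5). NEUROD1, a proneural factor gene, had a peak of 42.4 at 98.1 kb in A673 and of 64.8 at 65.3 kb in CHLA10, 32.5 kb from each other.

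Of 39 HOX genes 5 had an A673 peak (12.8%, against 16.9% of all genes) and 1 a CHLA10 peak (2.56%, against 5.46%). None had both, against 3.44% of all genes, a share at which few of 39 genes would have both. HOXC5 had a peak of 66.0 and HOXC4 of 56.1 in A673, with the nearest CHLA10 peaks 54.2 and 72.9 kb away. HOXC6 (8.37) and HOXB13 (7.44) were lower, and a peak 1.79 kb from HOXD12, next to HOXD13 itself, had 24.3. The CHLA10 peak lay 1.55 kb from HOXC11 (6.96), 38.6 kb from the HOXC6 peak of A673. HOXC genes overlap in this annotation, so the gene named within that cluster is uncertain. Of the 9 cofactor genes 5 had an A673 peak (55.6%, 21.2 to 86.3, against 16.9% of all genes), among them MEIS1 with 4 (up to 22.4), PBX3 with 2 (up to 35.4), and MEIS3 (32.9) and PKNOX2 (12.2) with 1 each. The median span of sequence for which a gene is the nearest was 300 kb for cofactors and 11.3 kb for HOX genes, against 62.3 kb for all genes, and its part in the counts was not tested.

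Limb patterning genes, where HOXD13 acts in the embryo, had a peak at 16 of 40 in A673 (40.0%, against 16.9% of all genes) and 4 of 40 in CHLA10 (10.0%, against 5.46%). The intervals were 24.9 to 56.7% in A673 and 2.79 to 23.7% in CHLA10, and that of CHLA10 includes the 5.46% of all genes. GLI3, the hedgehog effector of digit patterning, had 3 and 4 peaks with 1 shared, and EPHA3 5 and 1, 119 kb apart. SALL4 (up to 41.5), HAND1 (38.5), EPHA4 (36.8) and RSPO2 (63.5) had peaks in A673 only. PRRX1 (19.5) and TWIST1 (29.6, at 46.5 kb), mesenchymal regulators of the limb bud, had peaks in CHLA10 only. The median span of these genes was 176 kb.

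Mesenchymal genes repressed by EWS-FLI1 had a peak at 20 of 36 in A673 (55.6%, against 16.9% of all genes) and 8 of 36 in CHLA10 (22.2%, against 5.46%), and all 8 were among the 20; their median span was 124 kb. At 3 of the 8 the site was the same: CCN1 (13.6 in A673 and 17.3 in CHLA10), FOXO1 (10.5 and 20.7) and COL3A1 (14.4 and 15.9 at the shared site; A673 had a second peak of 42.2). At 5 the sites differed, with the closest pair 3.15 kb apart in CALD1, an actin-binding protein gene, 4.53 kb near CAV2, 14.1 kb in COL5A2, 28.1 kb at ANXA1 and 38.4 kb near ITGB1. TGFBI (53.4) and MMP2 (35.1), matrix genes, had A673 peaks only. EWS-FLI1 activated genes had a peak at 14 of 35 in A673 (40.0%, 23.9 to 57.9, against 16.9% of all genes). This interval overlaps that of the repressed genes (38.1 to 72.1). In CHLA10 3 of 35 had one (8.57%, 1.80 to 23.1, against 5.46% of all genes). The 3 were KDSR, SOX6 and MYC, each with a shared site. The median span of the activated genes was 115 kb. MYC had 2 A673 peaks (50.8 and 31.6), and the higher, 67.3 kb away, overlapped its CHLA10 peak (25.3). LIPI (50.0) and IL1RAP (36.0) had A673 peaks only.

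Regulators of mesenchymal transition had a peak at 8 of 27 in A673 (29.6%, against 16.9% of all genes) and 5 of 27 in CHLA10 (18.5%, against 5.46%), and 2 were common (3.44% of all genes). The intervals, 13.8 to 50.2% in A673 and 6.30 to 38.1% in CHLA10, were wide, and that of A673 includes the 16.9% of all genes. The median span was 200 kb, against 62.3 kb for all genes. YAP1, the Hippo pathway coactivator, had 14.4 and 33.6 at 1 shared site and MEOX2 a shared site in each line. TCF12 had 10 A673 peaks, TCF4 7, RUNX2 4 and TEAD1 3 with none in CHLA10, while TWIST1 and PRRX1 had CHLA10 peaks only. Collagen and matrix genes had one at 13 and 7 of 44 (29.5% and 15.9%, against 16.9% and 5.46% of all genes), with a median span of 172 kb. Their intervals were 16.8 to 45.2% in A673, which includes the 16.9% of all genes, and 6.64 to 30.1% in CHLA10. COL11A1 shared a site 72.1 kb away (21.0 in CHLA10), and COL21A1 had 11 and 2 peaks with the closest 4.42 kb apart. FBN1 (57.9) had A673 peaks only, and FMOD (67.4), VCAN (26.7) and FBN2 (24.2) CHLA10 peaks only.

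WNT pathway genes had a peak at 12 and 4 of 49, 24.5% (13.3 to 38.9) and 8.16% (2.27 to 19.6), intervals that include the 16.9% and 5.46% of all genes. The 4 were the stem cell receptor genes LGR4, LGR5 and LGR6 and the effector gene TCF7L2. TCF7L2 had a shared site (23.9 in CHLA10), while the LGR peaks of the lines lay 12.2, 41.8 and 2.68 kb apart. The ligand genes RSPO2 and RSPO3 (41.9) and the receptor gene FZD1 (21.6) had A673 peaks only. TGF-beta and BMP genes had one at 18 and 6 of 41 (43.9% and 14.6%, against 16.9% and 5.46% of all genes) and no shared site. Their median span was 143 kb, against 62.3 kb for all genes. TGFB2 had 1 and 3 peaks, 79.5 kb apart at the closest, the coreceptor gene TGFBR3 25.7 in A673 and 113 in CHLA10 at 24.9 kb, ACVR2A 4.93 and 17.5 at 12.9 kb, and LTBP1 26.4 and 30.3 with the closest 40.4 kb apart. BMPR1A (66.8), SMAD9 (52.1), ID3 (37.9) and INHBA (28.5) had A673 peaks only, and SMAD4, the common mediator (65.0), a CHLA10 peak only.

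Neural transcription factors had a peak at 12 and 3 of 48, 25.0% (13.6 to 39.6) and 6.25% (1.31 to 17.2), which also include the shares of all genes. PAX3, of the neural crest, had 3 peaks in each line with 2 shared, the highest being 81.7 kb away in A673 (52.7) and 78.5 kb in CHLA10 (21.3), and SOX5 and NEUROD1 are given above. PAX5 (81.9), GBX2 (55.6) and SOX11 (49.0) had A673 peaks only. The lists for other cell types and housekeeping follow, with intervals that all include the 16.9% and 5.46% of all genes. Epithelial genes had 3 and 1 of 24 (12.5% and 4.17%, median span 52.5 kb), with CDH3 (61.8) and TP63 (20.2) in A673 only and LAMA3 in both, 34.7 kb apart. Haematopoietic genes had 1 and 2 of 20 (5.00% and 10.0%, median span 33.9 kb), PTPRC in both lines 109 kb apart and RUNX3 (60.9) in CHLA10. Endothelial genes had 4 of 18 in A673 (22.2%, 6.41 to 47.6), KDR, FLT1, FLT4 and CLDN5, and 0 in CHLA10 (upper limit 18.5%). Their median span was 102 kb. Housekeeping genes had 1 of 30 in A673 (3.33%), B2M, and 0 in CHLA10 (upper limit 11.6%). Their median span was 27.7 kb, against 62.3 kb for all genes.

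In percent of peaks, shared peaks differed from A673-only peaks most in CHLA10 H3K27ac. They differed from CHLA10-only peaks most in the A673 marks H3K27ac, H3K4me1 and H3K4me3. Smaller gaps beyond the spread between libraries, in H3K27me3 and in CHLA10 H3K4me1 and H3K4me3, are given below. CHLA10 H3K27ac, a mark of active promoters and enhancers, covered 46.8% ± 0.821 (SD, n = 2 libraries) of shared A673 peaks and 22.6% ± 3.67 of A673-only peaks, a gap larger than the spread between libraries. Single libraries gave 47.4% and 46.2% against 25.2% and 20.0%. A673 H3K27ac covered 17.8% ± 4.10 and 16.6% ± 2.44, a gap smaller than the spread. When a mark peak within 1 kb also counted, A673 H3K27ac was at 40.9% and 30.1%. CHLA10-only peaks carried CHLA10 H3K27ac in 46.3% ± 4.79, and shared CHLA10 peaks in 51.1% ± 2.67, with single libraries that overlapped (49.7% and 42.9% against 53.0% and 49.2%). A673 H3K27ac covered 10.8% ± 1.37 of CHLA10-only peaks, below the 19.3% ± 4.35 of shared ones in both libraries.

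H3K4me1, a mark of enhancers, and H3K4me3, a mark of promoters, were lower at CHLA10-only sites in the A673 lists. A673 H3K4me1 covered 36.2% ± 4.79 of A673-only and 31.2% ± 5.33 of shared A673 peaks (n = 2). It covered 34.8% ± 6.87 of shared CHLA10 and 22.6% ± 4.52 of CHLA10-only peaks. CHLA10 H3K4me1 covered 5.61% ± 0.547 of shared A673, 8.19% ± 0.170 of A673-only, 6.65% ± 0.421 of shared CHLA10 and 8.43% ± 0.665 of CHLA10-only peaks. A673 H3K4me3 covered 8.99% ± 0.0639 of A673-only, 7.45% ± 1.78 of shared A673, 7.64% ± 1.26 of shared CHLA10 and 2.73% ± 0.488 of CHLA10-only peaks. For CHLA10 H3K4me3 these shares were 10.7% ± 0.0958, 10.6% ± 0.547, 11.3% ± 0.561 and 8.56% ± 0.222. H3K27me3, the Polycomb mark, covered 2.57% ± 0.287 of A673-only, 0.484% ± 0.137 of shared A673 and 0.345% ± 0.133 of CHLA10-only peaks in CHLA10. In A673 it covered 3.54% ± 0.703 of A673-only, 1.84% ± 0.137 of shared A673, 1.69% ± 0.421 of shared CHLA10 and 3.54% ± 0.842 of CHLA10-only peaks. No mark in any of the 16 libraries was found at 28.6% of A673-only and 21.7% of shared A673 peaks. The same was true of 24.8% of CHLA10-only and 18.3% of shared CHLA10 peaks. The classes also differ in place: on a promoter window lay 3.36% of A673-only, 1.38% of CHLA10-only and 3.48% of shared A673 peaks. The smallest p that an exact permutation of 2 libraries against 2 allows is 0.33, and none was computed. The classes rest on 1 HOXD13 library per line.

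**Figure D5:**
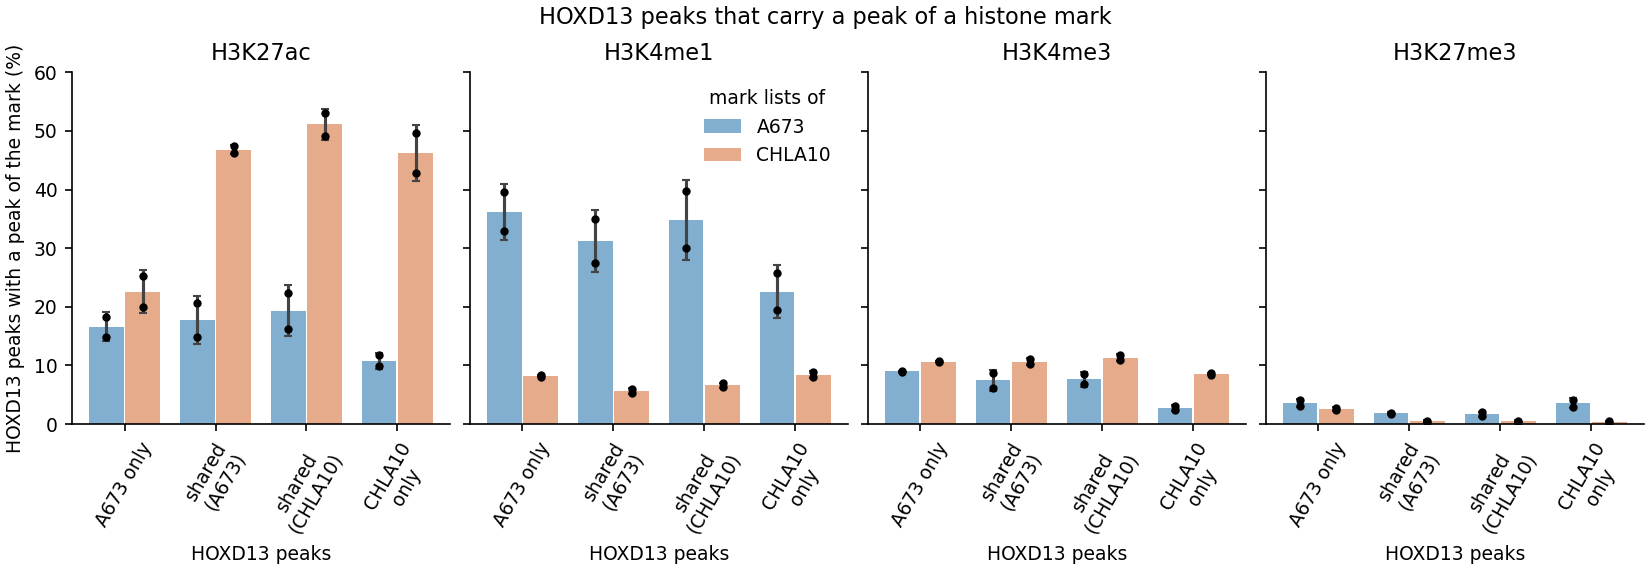
Percent of HOXD13 peaks with a peak of each histone mark (vertical axis) for A673-only, shared and CHLA10-only peaks, with mark lists of A673 (blue) and CHLA10 (orange). Bars are means of 2 libraries, error bars SD and dots the libraries. CHLA10 H3K27ac stands at 46.8% of shared A673 peaks and 22.6% of A673-only peaks, A673 H3K27ac at 17.8% and 16.6%.

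Set to the same length of 2099 peaks, the HOXD13 lists of the lines shared 10.4%. H3K27ac lists shared 10.3 to 12.5% between lines over the 4 pairs of libraries, H3K4me1 3.48 to 6.43%, H3K27me3 20.5 to 24.1% and H3K4me3 33.2 to 34.3%. Replicates of a mark within a line shared more than any pair of lists between lines, except for H3K4me1 in CHLA10 (5.60%): 73.4 and 74.9% for H3K4me3, 36.0 and 50.2% for H3K27ac, 35.6 and 71.2% for H3K27me3 and 5.60 and 47.0% for H3K4me1. HOXD13 has no replicate, so how much of the gap between its lists a second library of the same line would show was not measured.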

How the data were processed

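CUT&RUN libraries of A673 and CHLA10 had been made with antibodies against HOXD13 (1 per line) and 4 histone marks (2 per mark and line), with 25 bp paired reads. The authors deposited 1 narrowPeak list per library on hg38. Bowtie2, MACS2, SEACR 1.2 and bedtools are named per the submitters' processing notes, with no role given. Each deposited peak has a fold enrichment (a linear ratio) and a summit as the authors' caller gave them. Its −log10 p and −log10 q were deposited by the authors, and the deposited score equals 10 times −log10 q cut to a whole number. Read counts are not in these lists, so depth is unknown. The peak numbers in the HOXD13 names have gaps, so the lists are subsets of longer ones, and the criterion is not given in the sources used here.

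Peaks on chromosomes 1 to 22 and X were compared with python 3.11.15, numpy 2.4.6, pandas 2.3.3 and scipy 1.17.1. Overlap needed 1 bp, clusters at least 3 peaks with gaps up to 50 kb, and genes (19970 protein-coding, RefSeq GRCh38.p14) an overlap or a boundary within 100 kb. Functions were tested on simulated data. With 1 HOXD13 library per line no test was made. Shares carry 95% intervals by the exact Clopper-Pearson method, for counting error alone. The mark replicates carry numbers only, and their SD may be technical spread. The members, the 14 gene lists and the motifs were chosen with earlier results of these data known. Named peaks and genes are the 10 highest −log10 q of each class and line, the 6 clusters and 8 genes with most peaks, the 8 strongest genes with separate places, the 8 closest pairs without overlap, and, per list, genes of both lines and the 4 highest per line. Windows, promoters and other names were picked after their values were seen. Alternatives were stricter overlap, other gaps, other gene assignments, the upper 50% of peaks, lists of 2099 peaks, mark peaks within 1 kb and leaving out a mark library. A few list members and peaks are not reported here.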

Additional observations from a re-analysis of the deposited data

How the results depend on the processing

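Most shares moved with list length and definition. Shared A673 peaks (7.22%) were 3.87% with 50% reciprocal overlap, 5.15% in the upper 50% by −log10 q and 10.4% with 2099 peaks per list, and shared CHLA10 peaks (24.0%) 13.2%, 17.6% and 10.5%. Within 10 kb of the other line lay 11.03% of A673 peaks, 6.83% in the upper 50% and 13.2% with equal lists, and 33.5% of CHLA10 peaks, 22.2% and 15.4%. In clusters lay 21.4% of A673 peaks, 5.34% with gaps to 10 kb, 37.03% to 100 kb, 7.02% in the upper 50%, 2.33% with equal lists and 16.04% after merging peaks under 1 kb apart. For CHLA10 (9.29%) these were 3.91%, 15.6%, 0.856% and, merged, 3.28%. So A673 led CHLA10 in clustering with the full lists and trailed it with equal ones. Genes with a peak numbered 3378 in A673, 7748 with every gene in 100 kb, 2068 in the upper 50% and 1344 with equal lists. In CHLA10 they numbered 1091, 2326 and 670, and in both 686, 1628, 318 and 359. With mark peaks within 1 kb, A673 H3K27ac was at 40.9% of shared A673, 40.97% of shared CHLA10, 30.1% of A673-only and 18.7% of CHLA10-only peaks, and CHLA10 H3K27ac at 71.6%, 71.7%, 31.6% and 63.3%. In the upper 50%, A673 H3K27ac covered 8.50% of CHLA10-only peaks. TTTATTGG was in 14.2% of A673 windows in the upper 50% and 20.4% with equal lists, and in 50% of CHLA10 windows in the upper 50%. The merging and promoter alternatives were chosen after seeing the data. The cause of these shifts was not tested, since cutting a list changes its length and its peak strength together.

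Leaving out 1 mark library gave A673 H3K27ac at 14.9 to 20.7% of shared A673, 14.9 to 18.3% of A673-only and 9.84 to 11.8% of CHLA10-only peaks, and CHLA10 H3K27ac at 46.2 to 47.4%, 20.0 to 25.2% and 42.9 to 49.7%. No paired analysis was possible because each line has 1 HOXD13 library and no test was made. One limit is that absence of a peak from a list is not absence of binding: the lists are subsets of unknown depth.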
